A study of Mus musculus with 18 samples.

Results

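The 10 genes described here belong to the YAP and TEAD pathway: Yap1 and Wwtr1, which encode the co-activators YAP and TAZ, Tead1, which encodes a DNA-binding partner, and Lats2, Ajuba, Amotl2, Ccn1, Ccn2, Ankrd1 and Axl. They were taken as every probe set whose array annotation gave 1 of these symbols and no other, which were 24 of the 45037 probe sets of the array that are not controls. Of the 24, 18 lay above the filter on dim signals and were tested with the 22518 probe sets that passed it, and each of the 10 genes had at least 1 tested probe set.

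RNA came from preantral to small antral ovarian follicles of C57BL/6NTac female mice, 6 to 8 weeks old. Recombinant anti-Müllerian hormone (AMH), which granulosa cells secrete and which restrains follicle growth, was given at 50 or 200 ng/mL beside vehicle, and the follicles of 7 mice made up a pool that supplied all 3 doses, with 3 pools kept for 24 h and 3 other pools for 12 h. The groups were therefore vehicle, AMH 50 ng/mL and AMH 200 ng/mL at 24 h, and the same doses at 12 h, each with 3 arrays, and every culture, vehicle included, contained 80 IU/L of follicle-stimulating hormone and 10 IU/L of luteinising hormone. The animals carried no engineered allele according to the labels, and no culture was without gonadotropins. Signals are MAS5 intensities from whole follicles, so fewer cells of a type and less RNA per cell cannot be told apart.

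In the Hippo pathway a kinase cascade ending in LATS1 and LATS2 phosphorylates YAP and TAZ, which then stay in the cytoplasm or are degraded. Unphosphorylated YAP and TAZ enter the nucleus and bind TEAD factors, which recognise the DNA letters GGAATG, and they raise transcripts such as Ccn1, Ccn2 and Ankrd1. Several of these genes feed back on the pathway: LATS2 inhibits YAP and is itself a target, AMOTL2 holds YAP outside the nucleus, and AJUBA is a scaffold that inhibits the LATS kinases. In the ovary, cutting or stretching the tissue is known to disrupt Hippo signalling, raise CCN transcripts and promote follicle growth.

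Promoter windows of 5 of the genes are shown because they carry the letters that TEAD factors recognise, in targets and feedback genes whose signals are given below. The windows run from 250 bases before to 50 bases after the annotated start of the transcript (RefSeq, GRCm38.p6), 5′ to 3′ on the strand of the gene, and the capitals mark GGAATG or, where the motif lies on the other strand, CATTCC. They are chr3:145649936-145650235 for Ccn1 (minus strand), chr19:36119795-36120094 for Ankrd1 (minus), chr14:54577612-54577911 for Ajuba (minus), chr9:102717554-102717853 for Amotl2 (plus) and chr14:57746074-57746373 for Lats2 (minus).
Ccn1: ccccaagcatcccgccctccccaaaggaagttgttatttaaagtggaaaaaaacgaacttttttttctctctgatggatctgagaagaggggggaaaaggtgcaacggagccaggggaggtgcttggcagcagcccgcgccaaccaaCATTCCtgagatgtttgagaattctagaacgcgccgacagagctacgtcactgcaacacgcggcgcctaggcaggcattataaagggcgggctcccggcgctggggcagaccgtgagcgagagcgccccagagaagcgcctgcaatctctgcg
Ankrd1: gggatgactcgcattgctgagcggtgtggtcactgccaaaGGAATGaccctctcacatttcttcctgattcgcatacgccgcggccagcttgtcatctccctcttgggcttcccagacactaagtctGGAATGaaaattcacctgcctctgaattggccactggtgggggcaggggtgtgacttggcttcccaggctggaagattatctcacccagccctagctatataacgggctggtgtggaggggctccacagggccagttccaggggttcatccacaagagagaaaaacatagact
Ajuba: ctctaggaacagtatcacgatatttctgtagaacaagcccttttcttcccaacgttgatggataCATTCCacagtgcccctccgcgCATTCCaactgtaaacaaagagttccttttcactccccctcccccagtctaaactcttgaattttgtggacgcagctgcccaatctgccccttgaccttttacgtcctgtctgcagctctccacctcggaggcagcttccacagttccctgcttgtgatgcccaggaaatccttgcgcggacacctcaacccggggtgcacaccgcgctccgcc
Amotl2: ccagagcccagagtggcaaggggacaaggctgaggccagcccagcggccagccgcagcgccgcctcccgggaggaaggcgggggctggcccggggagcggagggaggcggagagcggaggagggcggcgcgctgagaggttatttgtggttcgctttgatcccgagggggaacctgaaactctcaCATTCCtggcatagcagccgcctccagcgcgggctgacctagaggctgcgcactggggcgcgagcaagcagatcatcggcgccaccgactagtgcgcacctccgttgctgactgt
Lats2: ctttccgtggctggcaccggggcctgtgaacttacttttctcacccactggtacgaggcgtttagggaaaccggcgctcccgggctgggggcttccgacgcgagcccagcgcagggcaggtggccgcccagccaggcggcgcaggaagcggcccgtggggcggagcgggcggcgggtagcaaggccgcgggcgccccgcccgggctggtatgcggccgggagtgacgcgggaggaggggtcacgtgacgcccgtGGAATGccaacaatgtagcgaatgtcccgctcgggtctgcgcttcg
The first base of the motif lay at -103 in Ccn1, at -210 and -123 in Ankrd1, at -186 and -164 in Ajuba, at -65 in Amotl2 and at 5 in Lats2, counted from the start of the transcript. The promoter table held 10 windows for 8 of the genes, and Ccn2 and Tead1 were not among them. With both strands searched, 9 of the 10 windows and each of the 8 genes held the motif at least 1 time, against 14.7% of all 32851 windows in the table. The remaining genes had it at -141 (Yap1), -136 (Wwtr1, the same copy read as -170 from a second start) and -233 (Axl), and 1 of the 2 Lats2 windows had none. Windows with 2 or more copies, as in Ankrd1 and Ajuba, made up 1.36% of the table. The AP-1 motif TGANTCA, which often accompanies TEAD sites in enhancers, was in 0 of the 10 windows, against 7.81% of all windows. A match of letters is a description and not a measured binding site.

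One array stood apart and is given separately: AMH 50 ng/mL, 12 h, replicate 3. Its correlation with the other 17 arrays lay between 0.472 and 0.505, against 0.813 to 0.984 among those 17, and its hybridisation controls averaged 32128, against 1582 to 3879 in the others. It was kept out of the fits below, except where all 18 arrays are named, and is a cross in the plots. The AMH 200 ng/mL array of the same pool stayed in, although its poly-A controls averaged 5451 (at most 1607 on the other 16) and its correlation with the others had a median of 0.847. Granulosa cell markers had summed signals of 3029 to 10440 over 11 genes on the 17 arrays of the fits, among them Foxl2 (median 654), Inha (median 1807) and Hsd17b1 (median 817). Fshr (1.48 to 213) and Esr2 (8.56 to 199) of the same list were dim on some arrays. Amh itself was dim, with signals of 1.54 to 221 and a median of 21.0. Markers of other cells were present on these 17 arrays as well: 12 surface epithelium genes summed to 3578 to 17410, 5 smooth muscle genes to 584.6 to 3205, and 12 oocyte genes to 251.7 to 8024.

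Signals of different probe sets are not on one scale, so each gene is compared only with itself. Of the co-activators, Yap1 (chr9:7931999-8004638) was represented by probe set 1448363_at. At 24 h its signals were 832, 940.3 and 868 in vehicle, 896, 804 and 755 at AMH 50 ng/mL and 679, 795 and 765 at AMH 200 ng/mL, in the order of replicates 1 to 3. At 12 h they were 816, 1197 and 937 in vehicle, 727 and 797 at AMH 50 ng/mL (replicates 1 and 2) and 877, 1246 and 921 at AMH 200 ng/mL. The 24 h arrays at 200 ng/mL all lay below all 24 h vehicle arrays, and both 12 h arrays at 50 ng/mL lay below all 12 h vehicle arrays. The other tested Yap1 probe set, 1416487_a_at, overlapped in both comparisons. It had 200 to 202 at 200 ng/mL and 24 h, against 178 to 209 in vehicle. At 50 ng/mL and 12 h it had 234 to 278, against 247 to 296 in vehicle. How many of all tested probe sets had no overlap between doses was not counted, for Yap1 or the genes below. Wwtr1 (chr3:57455644-57575910, probe set 1417818_at) had 517, 768 and 834 in vehicle, 575, 629 and 781 at 50 ng/mL and 576, 713 and 707 at 200 ng/mL at 24 h. Its 12 h signals were 713, 740.3 and 1413 in vehicle, 545 and 726 at 50 ng/mL and 709, 965 and 997 at 200 ng/mL. The vehicle array of replicate 3 at 12 h was the highest of the 17, and the doses overlapped at both times.

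Tead1 (chr7:112679356-112906784, probe set 1423434_at) encodes a TEAD factor. It had 502, 738 and 717 in vehicle, 779, 533 and 628 at 50 ng/mL and 597, 804 and 672 at 200 ng/mL at 24 h. At 12 h it had 774, 1002 and 1196 in vehicle, 820.0 and 841 at 50 ng/mL and 995, 989 and 1692 at 200 ng/mL. Each 12 h vehicle array was above each 24 h vehicle array.

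**Figure D1:**
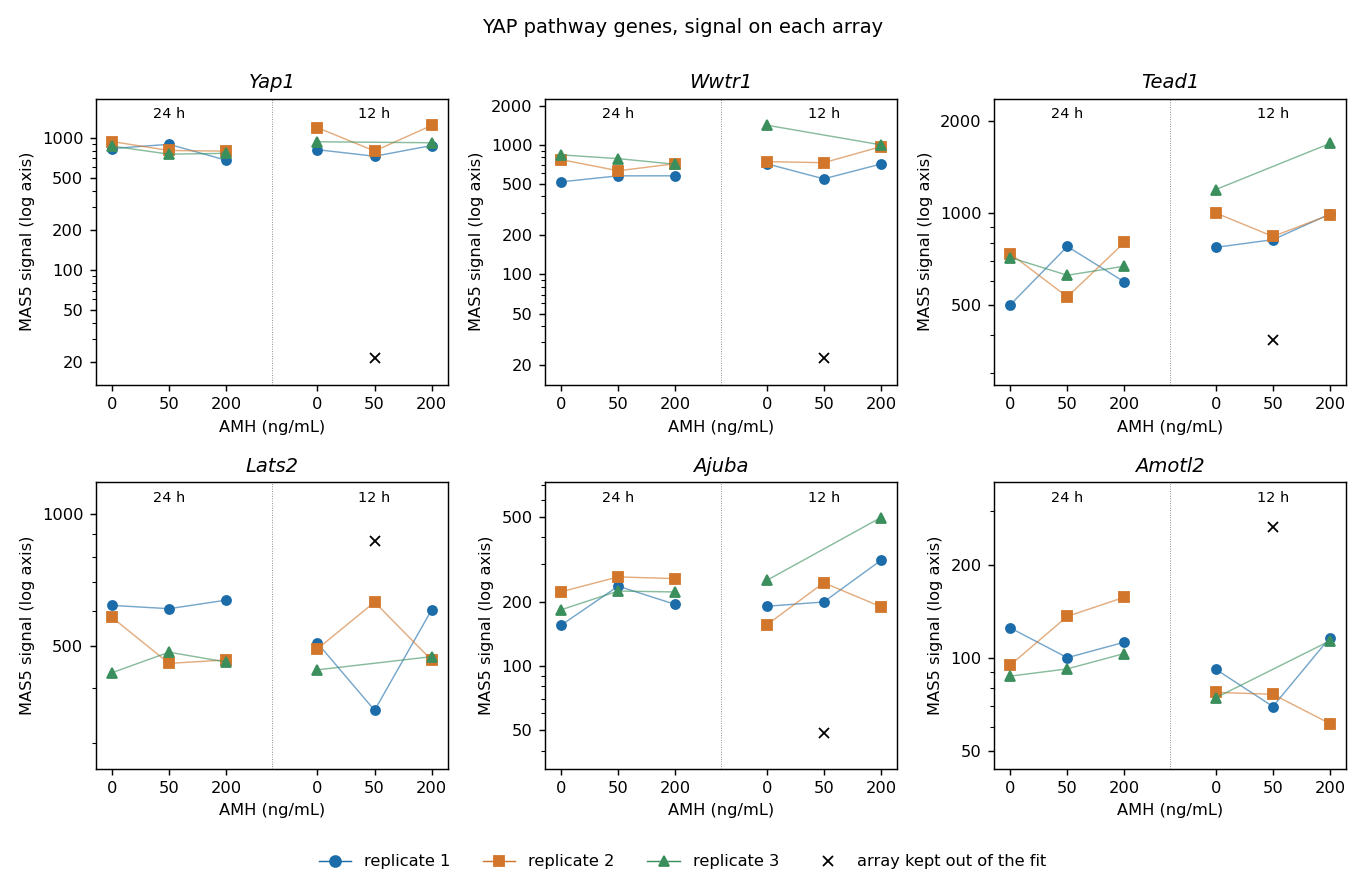
MAS5 signal (log axis) of the co-activators Yap1 and Wwtr1, their partner Tead1 and the regulators Lats2, Ajuba and Amotl2 on each array, by AMH dose, with 24 h left of 12 h; lines join the arrays of 1 pool and the cross is the array kept out of the fits. Ajuba lies above its own vehicle array at AMH 200 ng/mL in all 6 pools, while the cross lies outside the range of the other 17 arrays in these 6 genes.

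Of the regulators, Lats2 (chr14:57689662-57746212, probe set 1439441_x_at) had 24 h signals of 619, 582 and 434 in vehicle, 609, 456 and 484 at 50 ng/mL and 637, 465 and 459 at 200 ng/mL. Its 12 h signals were 508, 493 and 441 in vehicle, 356 and 630.0 at 50 ng/mL and 605, 464 and 473 at 200 ng/mL. All groups overlapped. Ajuba (chr14:54567469-54577661, probe set 1421344_a_at) had 155, 222 and 183 in vehicle, 236, 261 and 224 at 50 ng/mL and 194, 256 and 222 at 200 ng/mL at 24 h. At 12 h it had 190.0, 155 and 251 in vehicle, 199 and 245 at 50 ng/mL and 312, 189 and 495 at 200 ng/mL. At both times every AMH array in the fits lay above the vehicle array of its own pool, while the groups as a whole overlapped except for AMH 50 ng/mL at 24 h. Amotl2 (chr9:102717091-102733418, probe set 1452387_a_at) had 125, 94.9 and 87.4 in vehicle, 100.3, 137 and 92.2 at 50 ng/mL and 113, 157 and 103 at 200 ng/mL at 24 h. Its 12 h signals were 92.0, 77.4 and 74.3 in vehicle, 69.6 and 76.3 at 50 ng/mL and 117, 61.3 and 114 at 200 ng/mL, with all groups overlapping.

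Of the targets, Ccn1 (chr3:145646971-145649985, probe set 1416039_x_at) and Ccn2 (chr10:24595442-24598683, probe set 1416953_at) encode secreted matrix-associated proteins and are the most used readouts of YAP activity. Ccn1 had 24 h signals of 69.1, 137 and 65.2 in vehicle, 167, 65.6 and 81.6 at 50 ng/mL and 66.2, 90.8 and 74.4 at 200 ng/mL. Its 12 h signals were 192, 102 and 203 in vehicle, 90.7 and 187 at 50 ng/mL and 269, 105 and 474 at 200 ng/mL. Ccn1 ran from 65.2 to 474 over the 17 arrays, and the highest 2 arrays were those of 200 ng/mL at 12 h in replicates 3 and 1. Ccn2 had 61.4, 129 and 90.8 in vehicle, 165, 77.0 and 109 at 50 ng/mL and 46.4, 74.0 and 58.2 at 200 ng/mL at 24 h. At 12 h it had 154, 88.1 and 179.5 in vehicle, 59.8 and 171 at 50 ng/mL and 206, 124 and 351 at 200 ng/mL. At 200 ng/mL Ccn2 was below vehicle in each 24 h pool and above vehicle in each 12 h pool, although the groups overlapped at both times.

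Ankrd1 (chr19:36111965-36119844, probe set 1420992_at), which encodes an ankyrin repeat protein induced by YAP and by mechanical load, was dim. It had 36.6, 31.8 and 19.7 in vehicle, 69.4, 43.3 and 12.9 at 50 ng/mL and 8.03, 17.2 and 23.9 at 200 ng/mL at 24 h. Its 12 h signals were 14.7, 35.8 and 47.5 in vehicle, 57.6 and 88.5 at 50 ng/mL and 54.2, 18.8 and 59.6 at 200 ng/mL. Both 12 h arrays at 50 ng/mL lay above all 12 h vehicle arrays, and other groups overlapped. Axl (chr7:25756500-25788924, probe set 1423586_at), a receptor tyrosine kinase gene induced by YAP, was the steadiest of the targets. Its 24 h signals were 1400.2, 1462 and 1387 in vehicle, 1471, 1389 and 1309.8 at 50 ng/mL and 1253, 1339.8 and 1471 at 200 ng/mL. At 12 h they were 1317, 1532 and 1471 in vehicle, 1360.2 and 1545 at 50 ng/mL and 1364, 1445 and 2037 at 200 ng/mL. The array of 200 ng/mL at 12 h in replicate 3 was the highest, and the doses overlapped.

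**Figure D2:**
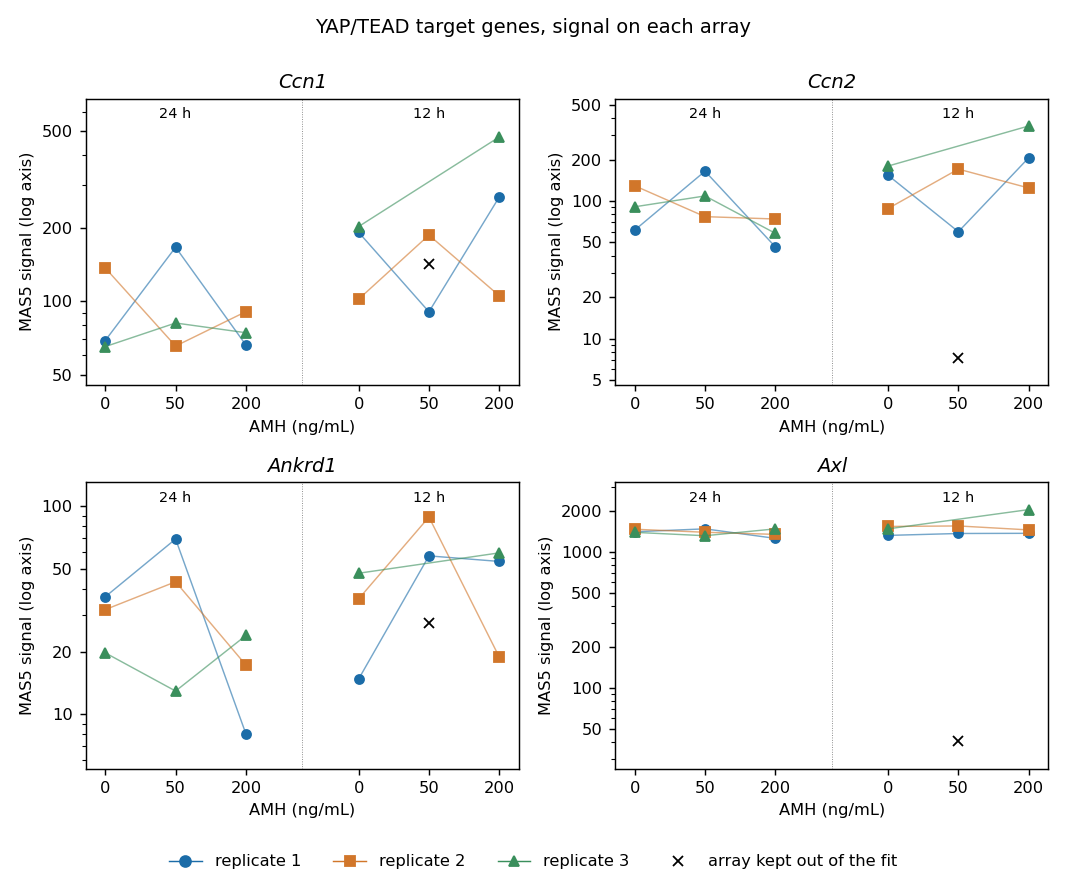
MAS5 signal (log axis) of the targets Ccn1, Ccn2, Ankrd1 and Axl on each array, by AMH dose, with 24 h left of 12 h; lines join the arrays of 1 pool and the cross is the array kept out of the fits. Lines of different pools cross for Ccn1, Ccn2 and Ankrd1, and in the third 12 h pool Axl reads 2037 at AMH 200 ng/mL, against 1471 in vehicle.

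Genes with several probe sets gave several readings of one transcript, and these did not always follow each other. After each pool's mean was removed, the tested Ccn1 probe sets correlated at 0.976 over the 17 arrays, those of Wwtr1 between 0.386 and 0.907, those of Lats2 between 0.442 and 0.765, those of Yap1 at 0.246 and those of Tead1 at -0.182. These are descriptions over arrays that share pools. The 6 probe sets that were too dim to test were 2 of Ccn1, 2 of Lats2, 1 of Ankrd1 and 1 of Axl. Probe sets whose names end in _x_at or _s_at, as for Ccn1 and Lats2 here and Wwc1 and Vgll3 below, can match other transcripts.

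The first comparison asked how AMH 200 ng/mL differed from vehicle after 24 h. None of the 18 probe sets passed the limma test at an adjusted p of 0.05, as was so for 0 of all 22518 tested (0%), of which 379 had an unadjusted p under 0.05 (1.68%, with 0.6% higher and 1.08% lower). Of the 10 genes, 3 had estimates above 0 and 7 below, with a median log2 difference of -0.07, while 53.5% of all tested probe sets lay above 0, with a median of 0.01. Estimates are log2 differences of signals after 16 was added, which understates differences of dim genes. Yap1 differed by -0.23 (SE 0.12, 0.850-fold) and was lower in 3 of 3 pools. The other tested Yap1 probe set, 1416487_a_at, stood at 0.05 (SE 0.14), higher in 2 of 3 pools. Ccn2 differed by -0.51 (SE 0.39, 0.703-fold) and was lower in 3 of 3 pools. Ankrd1 stood at -0.50 (SE 0.38), lower in 2 of 3 pools. Ajuba stood at 0.25 (SE 0.18), higher in 3 of 3 pools, and Amotl2 at 0.24 (SE 0.23), higher in 2 of 3. Single pools weighed on some of these values: Ankrd1 was -0.18 without replicate 1 and -0.83 without replicate 3, Amotl2 was 0.036 without replicate 2 and 0.43 without replicate 1, and 5 of the 10 genes were above 0 without replicate 2. Every pool was lower for 2 of the 10 genes and higher for 1, while 11.9% of all tested probe sets were lower in every pool and 15.7% higher. A second Wwtr1 probe set, 1437155_a_at, had signals of 201, 267 and 176 at 200 ng/mL, against 249.5, 340.3 and 262 in vehicle, a difference of -0.39 (SE 0.17), and was the 1 member probe set with an unadjusted p under 0.05. The probe set that stands for Wwtr1, 1417818_at, was at -0.06 (SE 0.15), and 1417817_a_at was at -0.28 (SE 0.15). Of the marker lists, 7 of 11 granulosa, 3 of 12 theca and stroma, 0 of 3 smooth muscle, 0 of 12 surface epithelium, 6 of 10 oocyte, 1 of 10 leukocyte (median -0.85) and 7 of 10 endothelial genes had estimates above 0. None of these markers passed, and their part was not tested.

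At AMH 50 ng/mL and 24 h, 5 of the 10 genes were above vehicle and 5 below, with a median of 0.04, while 48.5% of all tested probe sets lay above 0, with a median of -0.01. Ajuba had the largest estimate, 0.35 (SE 0.18, 1.27-fold), and was higher in 3 of 3 pools, as 10.8% of all tested probe sets were. The other 9 genes lay between -0.10 (Yap1) and 0.27 (Ccn2), each within 1 SE of 0. No probe set on the array passed (0%), and 605 had an unadjusted p under 0.05 (2.69%, with 0.391% higher and 2.3% lower), of which 0 were among the 18 of these genes. Markers of other cells differed in the same arrays: 0 of 10 oocyte, 0 of 12 surface epithelium, 1 of 10 leukocyte (median -0.69), 2 of 11 granulosa, 6 of 10 endothelial, 2 of 3 smooth muscle and 10 of 12 theca and stroma genes had estimates above 0, and their part was not tested. With each array centred on its median, the median over all tested probe sets moved to 0.10 and all 10 genes lay above 0, so the count of genes on each side depended on the scaling. It was 3 above 0 without replicate 1 and 7 without replicate 2.

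The 2 doses were compared directly at 24 h. Ccn2 was lower at 200 than at 50 ng/mL by an estimate of -0.78 (SE 0.39), in 3 of 3 pools, and Ankrd1 by -0.73 (SE 0.38), in 2 of 3. Both values rested in part on replicate 1, without which Ccn2 stood at -0.40 and Ankrd1 at -0.19, and the lowest values as single pools were left out were -1.14 for Ccn2 (without replicate 2) and -1.33 for Ankrd1 (without replicate 3). Yap1 differed by -0.13 (SE 0.13), and by 0.0020 without replicate 1. No probe set passed (0%), and 4.16% of those tested had an unadjusted p under 0.05 (2.91% higher and 1.25% lower), with 0 of the 18 member probe sets. Of the 10 genes 4 lay above 0 and 6 below, while 54.1% of all tested probe sets lay above 0, and the remaining estimates of the 10 genes lay between -0.29 and 0.16. As single pools were left out, 6 genes lay above 0 without replicate 1 and 1 without replicate 2, and 1 did with each array centred on its median. Theca and stroma markers were below 0 in 12 of 12 and oocyte markers above 0 in 10 of 10, and their part was not tested. For Axl the 95% interval of 200 ng/mL against vehicle at 24 h ran from -0.35 to 0.21, and for Wwtr1 from -0.40 to 0.27. For Ccn2 it ran from -1.34 to 0.33 and for Ankrd1 from -1.32 to 0.32, so each interval holds both a decrease and a small increase.

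**Figure D3:**
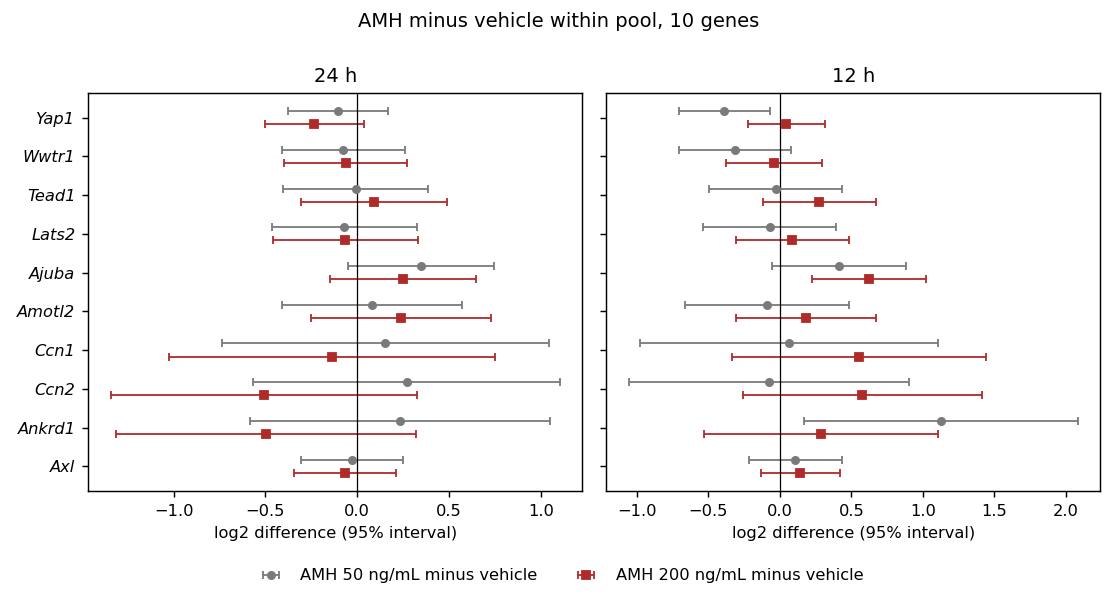
Estimated log2 difference of AMH 50 ng/mL and of AMH 200 ng/mL from vehicle within pools for the 10 genes, with 95% intervals, 24 h left and 12 h right. At 24 h every interval holds 0, and at 12 h those of Yap1 and Ankrd1 at 50 ng/mL and of Ajuba at 200 ng/mL do not; the intervals are not adjusted for the number of probe sets.

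At 12 h the AMH 50 ng/mL group had 2 usable arrays, so its estimates come from 2 pools, with the third pool's vehicle and 200 ng/mL arrays entering through the shared fit. Ankrd1 was 2.18-fold vehicle (log2 1.13, SE 0.44) and higher in both pools, with an adjusted limma p of 0.867. Yap1 differed by -0.39 (SE 0.15, 0.765-fold), lower in both pools, with an adjusted p of 0.867. Wwtr1 stood at -0.31 (SE 0.18), lower in both pools. Its other probe sets stood at 0.03 (SE 0.17, 1417817_a_at) and -0.09 (SE 0.20, 1437155_a_at), each lower in 1 of 2 pools. Ajuba stood at 0.41 (SE 0.22), higher in both pools. With so few pools such agreement was common: 26.1% of all tested probe sets were higher in both pools and 28.6% lower. No probe set passed (0%), and 5.69% had an unadjusted p under 0.05 (1.99% higher and 3.7% lower), as did 2 of the 10 genes, Ankrd1 (higher) and Yap1 (lower). The other estimates lay between -0.09 and 0.11. Of the 10 genes 4 were above 0 and 6 below, and 8 were above 0 with arrays centred on their medians, while 42.1% of all tested probe sets were above 0. All 12 surface epithelium markers had estimates above 0, as had 0 of 10 oocyte and 2 of 12 theca and stroma markers, and their part was not tested. Without replicate 1, 7 of the 10 genes were above 0 with a median of 0.29, against a median of -0.05 with both pools; the array then left alone at 50 ng/mL was assumed to vary like those of the other groups. As single pools were left out the estimates ran from -0.60 to -0.19 for Yap1, from -0.50 to -0.20 for Wwtr1 and from 0.13 to 0.78 for Ajuba, with Yap1 and Ajuba nearest 0 without replicate 2. With all 18 arrays in the fit the Ajuba estimate was -0.46.

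At AMH 200 ng/mL and 12 h most of the 10 genes had estimates above 0, though several of these were small beside their SE. Yap1 (0.05, SE 0.13), Lats2 (0.09, SE 0.18), Amotl2 (0.18, SE 0.23) and Ankrd1 (0.29, SE 0.38) were above 0 by less than 1 SE. The genes are also not separate readings, since Ccn1 and Ccn2 correlated at 0.921 with pool means removed. Estimates were above 0 for 9 genes and below 0 for 1 (Wwtr1, -0.04), with a median of 0.23, whereas 39.6% of all tested probe sets lay above 0, with a median of -0.08. Ajuba was 1.54-fold vehicle (log2 0.62, SE 0.18), with means of 332 ± 154 at 200 ng/mL and 199 ± 48.5 in vehicle (SD, n = 3 each), and it was higher in 3 of 3 pools. Its adjusted limma p was 0.432, so it did not pass, nor did any other probe set on the array (0%). An unadjusted p under 0.05 was reached by Ajuba alone among the 10 genes and by 2563 of all tested probe sets (11.4%, with 2.94% higher and 8.44% lower). Ccn2 stood at 0.58 (SE 0.39, 1.49-fold) and Ccn1 at 0.55 (SE 0.41, 1.46-fold), and both were higher in all 3 pools. Higher in every pool were 3 of the 10 genes and 8.76% of all tested probe sets, and lower in every pool were 0 of the 10 and 14.4%. Tead1 stood at 0.28 (SE 0.18) and Axl at 0.14 (SE 0.13), and both were above vehicle in 2 pools. The other tested Tead1 probe set, 1429556_at, went the other way, at -0.23 (SE 0.16), and was above vehicle in 1 of 3 pools.

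The size of these estimates rested in part on the array with high poly-A controls. That array had the highest Ajuba, Ccn1, Ccn2, Tead1 and Axl signals of the 17. Without it, a choice made after seeing the data, the estimates were 0.46 for Ajuba, 0.41 for Ccn2, 0.25 for Ccn1, 0.17 for Tead1 and -0.02 for Axl, and still 9 of the 10 genes were above 0, with a median of 0.18. Leaving out 12 h replicate 2 moved the values the other way, to 0.80 for Ajuba and a median of 0.42 over the 10 genes, with 9 above 0. Quantile normalization left 7 of the 10 above 0 and median centring 10. Markers of surface epithelium differed on the array with high poly-A controls as well: their summed signal was 17410, against 6724 in the vehicle array of its pool. Over the group the sum ran from 5873 to 17410 at 200 ng/mL and from 4502 to 7475 in vehicle, and the median differences of the 12 genes in the 3 pools were 0.41, -0.27 and 1.66. At 24 h the same 12 markers summed to 3578 to 4514 at 200 ng/mL and 4966 to 8743 in vehicle. All 12 were above 0 in estimate at 12 h and below 0 at 24 h, which is the direction that Ccn2 had at each time at this dose. In replicate 2 at 12 h, however, Ccn2 was at 0.43, where the markers had -0.27. At 50 ng/mL all 12 markers were likewise above 0 at 12 h and below 0 at 24 h, while Ccn2 stood at -0.08 and 0.27. The part of these cells in the differences was not tested. Of the other marker lists at 12 h, 3 of 11 granulosa, 8 of 12 theca and stroma, 1 of 3 smooth muscle, 6 of 10 oocyte, 4 of 10 leukocyte and 1 of 10 endothelial genes were above 0, and none passed. The median endothelial differences in the 3 pools were -0.46, 0.80 and -1.89.

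The 2 times were then set against each other at 200 ng/mL. The difference of the AMH effect, 24 h minus 12 h, was below 0 for 9 of the 10 genes, with a median of -0.24, while 60.2% of all tested probe sets were above 0 and their median was 0.10. Ccn2 had the largest estimate, -1.08 (SE 0.55), with an adjusted limma p of 0.627. It was followed by Ankrd1 at -0.79 (SE 0.53), Ccn1 at -0.69 (SE 0.58), Ajuba at -0.37 (SE 0.26), Yap1 at -0.28 (SE 0.18) and Axl at -0.21 (SE 0.18). The other tested Yap1 probe set, 1416487_a_at, stood at 0.03 (SE 0.20). Ankrd1 was -0.34 without 12 h replicate 1, and without 12 h replicate 3 Ccn1 was -0.38 and Ajuba -0.22. The Wwtr1 probe set 1417817_a_at stood at -0.50 (SE 0.21, adjusted p = 0.627), the 1 member probe set with an unadjusted p under 0.05, and no probe set on the array passed (0%, with 7.19% at an unadjusted p under 0.05). The probe set that stands for Wwtr1, 1417818_at, was at -0.02 (SE 0.22), and 1437155_a_at was at -0.49 (SE 0.24). The effects at the 2 times come from different pools but share 1 estimate of the spread, and the effects of the doses at 1 time share vehicle arrays. At 50 ng/mL the difference was -0.89 (SE 0.58) for Ankrd1, 0.28 (SE 0.19) for Yap1 and 0.24 (SE 0.24) for Wwtr1. Without 12 h replicate 2 Yap1 stood at 0.089, and without 12 h replicate 3 Wwtr1 at 0.13. The other 7 genes lay between -0.14 and 0.35, and 0% of all tested probe sets passed (3.24% at an unadjusted p under 0.05).

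Averaged over both times, Ajuba was the member that was higher at 200 ng/mL in 6 of 6 pools, at 1.35-fold (log2 0.43, SE 0.13, 95% interval 0.15 to 0.72), with an adjusted limma p of 0.951. Such a pattern, higher in all 6 pools, held for 0.848% of all tested probe sets, and 0% passed, with 3.39% at an unadjusted p under 0.05 (0.937% higher and 2.46% lower), among them Ajuba. Without the array with high poly-A controls the average was 0.36. Its difference from vehicle in the single pools was 0.30, 0.19 and 0.26 at 24 h and 0.67, 0.26 and 0.94 at 12 h. The other genes lay nearer 0: Amotl2 at 0.21 (SE 0.16), Tead1 at 0.18 (SE 0.13) and Yap1 at -0.09 (SE 0.09), with 7 of the 10 above 0 and a median of 0.04, while 41.7% of all tested probe sets lay above 0. The other tested probe sets of Tead1 (1429556_at) and Yap1 (1416487_a_at) had the opposite signs, at -0.15 (SE 0.11) and 0.03 (SE 0.10).

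Ccn1 and Ccn2 followed each other from array to array whatever the dose. With pool means removed their correlation over the 17 arrays was 0.921, and it was 0.917 over the 15 arrays outside the third 12 h pool. Both were high at 50 ng/mL in replicate 1 and low in replicate 2 at 24 h, and low in replicate 1 and high in replicate 2 at 12 h. Next to them, Lats2 correlated with Ccn1 at 0.739 and Ajuba with Ccn1 at 0.711, while Ankrd1 correlated with Ccn1 at 0.349. Over the 15 arrays these 3 values were 0.780, 0.620 and 0.350. The lowest of the 45 pairs over the 17 arrays was Wwtr1 with Axl at -0.595, which was -0.296 over the 15, where Wwtr1 with Ankrd1 was lowest at -0.513. Arrays of 1 pool share follicles, and 17 arrays from 6 pools are not independent, so these values are descriptions.

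**Figure D4:**
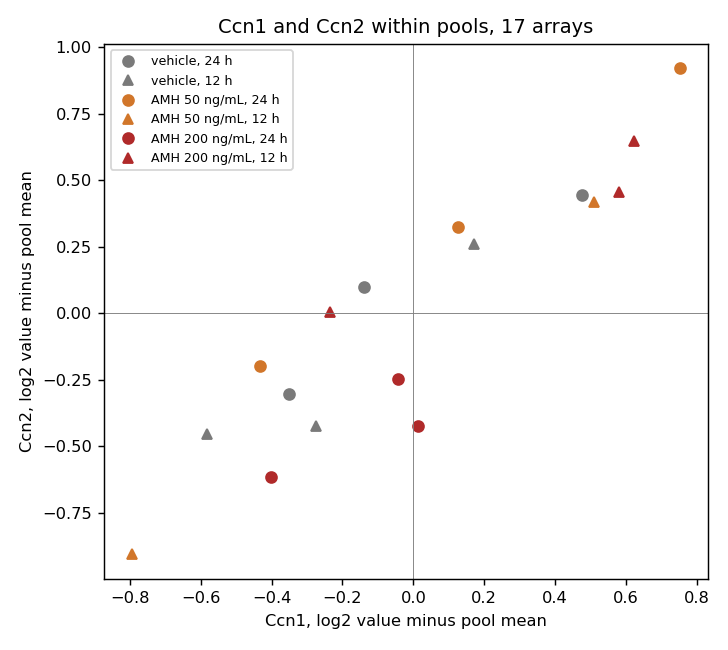
Log2 value minus pool mean of Ccn1 (x axis) and Ccn2 (y axis) on the 17 arrays, coloured by dose, with circles for 24 h and triangles for 12 h. The points lie along a diagonal (correlation 0.921).

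Markers of contractile cells were set beside Ccn1 and Ccn2. The mean of the 3 tested smooth muscle genes (Acta2, Tagln and Myh11) correlated with the mean of Ccn1 and Ccn2 at 0.808 over the 17 arrays and 0.923 over the 15 outside the third 12 h pool, with pool means removed. For surface epithelium the value was 0.519 (0.375 over the 15), for theca and stroma 0.211 (0.507) and for granulosa -0.525 (-0.457). At 24 h the smooth muscle sum was 3205 at 50 ng/mL in replicate 1, against 1174 in the vehicle array of that pool, and it was 1021 in replicate 2, against 1629. At 200 ng/mL and 12 h the median differences of the 3 genes from vehicle in the 3 pools were -0.05, 0.01 and 0.02, where Ccn2 had 0.39, 0.43 and 0.91. At 200 ng/mL and 24 h they were -0.50, -0.51 and 0.12, where Ccn2 had -0.31, -0.69 and -0.52. Oocyte, leukocyte and endothelial markers had 0.115, -0.0271 and -0.321. Tagln is itself on the list of YAP and TAZ targets used below, so these readings are not separate from the pathway. The part of contractile cells in the Ccn1 and Ccn2 differences was not tested.

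The 5 genes with the pattern most like that mean were Gstm1 (0.921), Slc25a5 (0.900), Txn2 (0.899), C1qbp (0.891) and Mettl7a1 (0.888), by Pearson correlation of pool-centred log2 values over the 17 arrays. Gstm1, Slc25a5 and Txn2 were represented by _x_at probe sets.

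Culture time was compared in vehicle alone, 24 h against 12 h, from 6 arrays of 6 pools. Of the 10 genes 8 had estimates below 0 and 2 above, with a median of -0.11, and of the 18 probe sets 15 were below 0, whereas 51.9% of all tested probe sets were above 0. Without the 12 h vehicle array of replicate 2, 5 of the 10 genes were below 0. None of the 18 passed, while 291 probe sets on the array did (1.29%), 197 higher (0.875%) and 94 lower (0.417%). Leaving out any of the 3 vehicle arrays of 24 h brought that number to 0 or 1. With the replicate number as a block 642 passed, again without a member, the nearest being Tead1 at an adjusted p of 0.0721. Tead1 had 502, 738 and 717 at 24 h, against 774, 1002 and 1196 at 12 h, a difference of -0.59 (SE 0.21, 0.665-fold), with an adjusted limma p of 0.189. The second Tead1 probe set, 1429556_at, did not overlap either, with 332, 285 and 345 at 24 h, against 382, 346 and 611 at 12 h.

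The co-activators leaned the same way. Wwtr1 probe set 1417817_a_at had 228, 303 and 267 at 24 h, against 368, 369 and 670.3 at 12 h (log2 -0.73, SE 0.25), and 1437155_a_at had 249.5, 340.3 and 262, against 351, 467 and 676 (log2 -0.74, SE 0.25). Neither pair of groups overlapped, and the adjusted limma p-values were 0.172 and 0.164. The probe set 1417818_at stood at -0.38 (SE 0.28) with overlap, and at -0.068 without the 12 h vehicle array of replicate 3. Yap1 probe set 1416487_a_at had 178, 195 and 209 at 24 h, against 247, 292 and 296 at 12 h, without overlap (log2 -0.48, SE 0.17, adjusted p = 0.184), but 1448363_at overlapped. In all, 5 of the 18 probe sets were lower at 24 h without overlap, and 11.4% of all tested probe sets were, while 5 of the 18 were lower at an unadjusted p under 0.05 and 7.86% of all were (18.6% in either direction). The 5 without overlap are repeated readings of Tead1, Wwtr1 and Yap1. With 1 probe set for each gene, 1 of the 10 genes was lower without overlap, and 2 of the 10 were lower at an unadjusted p under 0.05.

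Of the targets, Ccn1 was at 90.5 ± 40.5 at 24 h and 166 ± 55.5 at 12 h (SD, n = 3 each), a difference of -0.78 (SE 0.33, 0.581-fold), with an adjusted limma p of 0.255. Ccn2 averaged 93.8 ± 34.0 at 24 h and 141 ± 47.2 at 12 h, a difference of -0.51 (SE 0.32), which ran from -0.78 to -0.28 as single vehicle arrays were left out. Both genes overlapped between the times, since vehicle replicate 2 was the highest at 24 h and the lowest at 12 h. Amotl2 was the gene with the largest estimate above 0, 0.28 (SE 0.21), and Axl, Ankrd1, Ajuba, Yap1 and Lats2 lay between -0.14 and 0.16. Cell markers differed between the times as well: granulosa markers summed to 8609 to 9246 at 24 h, against 3127 to 5962 at 12 h, with 10 of 11 above 0 and 2 passing. Endothelial markers were below 0 in 9 of 10, with sums of 1088 to 2369 at 24 h and 1544 to 5759 at 12 h. The 5759 was on the 12 h vehicle array of replicate 3, and the other 12 h vehicle sums, 1978 and 1544, lay within the 24 h range. On that replicate 3 array oocyte markers summed to 251.7, against 3998 and 8024 on the other 12 h vehicle arrays, and granulosa markers to 3127, against 5612 and 5962. Above 0 were also 8 of 12 surface epithelium, 9 of 12 theca and stroma, 2 of 3 smooth muscle, 8 of 10 oocyte and 8 of 10 leukocyte markers. Of these lists 1 surface epithelium and 2 leukocyte genes passed. Their part in the differences was not tested.

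**Figure D5:**
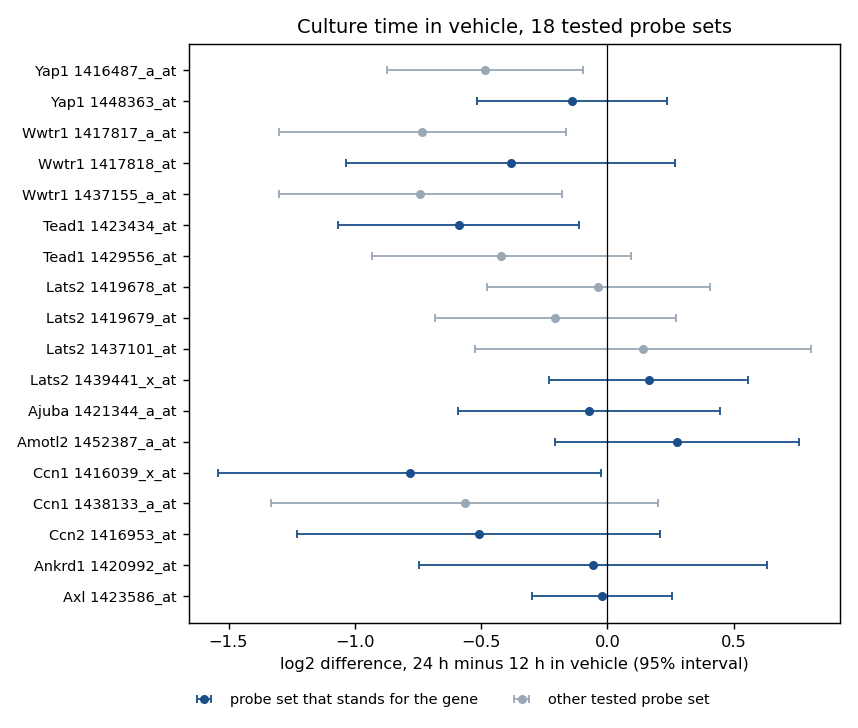
Estimated log2 difference of vehicle at 24 h minus vehicle at 12 h for the 18 tested probe sets of the 10 genes, with 95% intervals; dark points are the probe sets that stand for the genes. Most points lie left of 0, and both Tead1 and all 3 Wwtr1 probe sets do.

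The rest of the pathway was read from 3 lists. Of 20 genes of the Hippo cascade and its regulators 18 were tested, of 7 nuclear partners of YAP and TAZ 4, and of 22 further target genes 19, and none of these 41 passed in any comparison. The further targets come from a human signature, and whether they respond to YAP and TAZ in mouse follicles was not tested. At 200 ng/mL and 24 h 10 of the 18 cascade genes, 1 of the 4 partners and 8 of the 19 targets had estimates above 0. Medians of the lists lay between -0.05 and 0.02. Wwc1, which encodes KIBRA, an upstream activator of LATS kinases, had 707, 362 and 2446 at 200 ng/mL and 12 h, against 361, 415 and 878 in vehicle. At 24 h it had 204, 291 and 269 at 200 ng/mL, against 296, 685 and 329.6 in vehicle. Its estimates were 0.74 (SE 0.31) at 12 h and -0.66 (SE 0.31) at 24 h, and their difference was -1.40 (SE 0.43, limma adjusted p = 0.627), the same signs as for Ccn2 at this dose. At 50 ng/mL Wwc1 stood at 0.63 (SE 0.36) at 12 h and -0.60 (SE 0.31) at 24 h, where Ccn2 had the opposite signs (-0.08 and 0.27). The highest Wwc1 signal was again on the array with high poly-A controls.

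Among the further targets, Gadd45a, a stress and growth-arrest gene, had 772, 623 and 697 at 50 ng/mL and 24 h, against 418, 353 and 393 in vehicle (log2 0.82, SE 0.22), without overlap. At 200 ng/mL it had 532, 934 and 479.9 (log2 0.66, SE 0.22), also above vehicle in 3 of 3 pools. Neither difference passed the limma test. In vehicle Gadd45a had 418, 353 and 393 at 24 h, against 218, 165 and 258 at 12 h (log2 0.83, SE 0.20, adjusted p = 0.0790). Thbs1, which encodes the matrix protein thrombospondin, had 405, 659.7 and 400.0 at 200 ng/mL and 24 h, against 181, 333 and 362 in vehicle (log2 0.73, SE 0.24). Vgll3, a TEAD cofactor, had 56.1 and 47.6 at 50 ng/mL and 12 h, against 195, 73.4 and 183 in vehicle (log2 -1.23, SE 0.38, adjusted p = 0.867). F3, which encodes tissue factor, had 27.3, 57.6 and 41.3 in vehicle at 24 h, against 66.2, 84.5 and 117 at 12 h (log2 -0.86, SE 0.28, adjusted p = 0.152). The genes of this target list thus did not share a direction in these comparisons: at 200 ng/mL and 12 h 10 of the 19 further targets were above 0, with a median of 0.02.

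On the array that stood apart, 8 of the 10 genes lay outside the range of the other 17 arrays, and 16 of the 18 tested probe sets did, against 72.1% of all tested probe sets. Yap1 read 21.5, Axl 40.5 and Ccn2 7.27, each far below every other array. The 3 Wwtr1 probe sets read 6197, 22.6 and 104, so that 1 lay above and 2 below the range of 176 to 1413 that they spanned on the other arrays. Lats2 at 870.3 and Amotl2 at 265 lay above the other 17 arrays, and Ccn1 at 143 and Ankrd1 at 27.5 lay within them.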

How the data were processed

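The deposited table holds 1 signal intensity per probe set and array (Affymetrix Mouse Genome 430 2.0, 5 ng of RNA amplified), obtained by the authors with MAS5 per the submitters' processing notes, where no version is given. The 2% trimmed mean of each array is 150. The 12 h AMH samples carry a description that reads 24 h, and their title and source, which give 12 h, were followed. How far the arrays resolve a difference depends on their number.

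After 64 controls were set aside, 16 was added to each intensity and log2 taken, with no further normalization. Only probe sets brighter than the median probe set by mean log2 intensity (signal of about 27.4) were tested. For doses, limma 3.58.1 (R 4.3.3; lmFit, eBayes with an intensity trend) was run on 17 arrays with the pool as a block, and for time on the 6 vehicle arrays with no block. P-values were two-sided and adjusted by Benjamini-Hochberg over all tested probe sets, with a threshold of 0.05. The code was tested on simulated data, and plots used matplotlib 3.10.9.

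Doses with 1 replicate number and time share a pool per the labels, and their deviations correlated above 0.1 in 15 of 16 pairs (0.0672 to 0.495). Vehicle arrays with 1 number at both times correlated at 0.206 to 0.317, so the number was also tried as a block for time.

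The members, the pathway and marker lists and the choice of 17 arrays were made with earlier results of these data known. A gene stands for the brightest of its tested probe sets. For some genes other tested probe sets are given beside it. Single differences are named where the estimate exceeded its SE, where another member probe set had an unadjusted p under 0.05, or where all pools were opposite at the 2 times, and at most 4 genes of each pathway list and comparison, by smallest p, could be named. Alternatives changed the arrays, block, pseudocount (1 or 50), normalization, filter and variance trend, or dropped a pool or a vehicle array. Dropping the AMH 200 ng/mL array of 12 h replicate 3 was added after seeing the data.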

Additional observations from a re-analysis of the deposited data

Results flagged for a closer look

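A pair of readouts of the AMH 200 ng/mL effect had opposite directions in all pools of the 2 times: Ccn2 (probe set 1416953_at) and the second Ccn1 probe set (1438133_a_at) were lower than vehicle in 3 of 3 pools at 24 h and higher in 3 of 3 pools at 12 h. For Ccn2 the difference of the effects, 24 h minus 12 h, was -1.08 (SE 0.55, limma adjusted p = 0.627). For the Ccn1 probe set it was -0.89 (SE 0.58, limma adjusted p = 0.638), from 41.5, 59.9 and 41.9 at 200 ng/mL, against 52.1, 104 and 53.2 in vehicle at 24 h, and 189.8, 73.7 and 268 at 200 ng/mL, against 147, 63.8 and 125 in vehicle at 12 h. The brighter Ccn1 probe set was lower in 2 of 3 pools at 24 h. This pattern held for 1.48% of all tested probe sets, and the reverse pattern for 2.7%. Without the AMH 200 ng/mL array of 12 h replicate 3, a choice made after seeing the data, the differences were -0.92 for Ccn2 and -0.64 for the Ccn1 probe set.

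On the array that was kept out of the fits, AMH 50 ng/mL at 12 h in replicate 3, 4 of the 18 tested probe sets exceeded every 12 h vehicle array, as 29.3% of all tested probe sets did. The signals were 265 for Amotl2, 152 and 870.3 for the Lats2 probe sets 1419678_at and 1439441_x_at, and 6197 for the Wwtr1 probe set 1417817_a_at. The groups of 3 arrays are too small for a test of single outlying arrays.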

How the results depend on the processing

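No member passed the adjusted threshold under any alternative run. The single differences rerun were the 42 of these genes whose estimate exceeded its SE, or, for further probe sets, that had an unadjusted p under 0.05 or opposite AMH 200 ng/mL differences in all pools of the 2 times. Smaller estimates, the remaining probe sets of these genes and the further pathway genes (such as Wwc1, Gadd45a, Thbs1, Vgll3 and F3) were not rerun one by one. Of 666 alternative values for the 42, 661 kept their direction and 5 turned: Ajuba at AMH 50 ng/mL and 12 h was -0.46 with all 18 arrays (0.41 with 17), Axl at 200 ng/mL and 12 h (0.14) ran from -0.0165 to 0.26 as pools were left out, with -0.0165 without 12 h replicate 3 or without its AMH 200 ng/mL array alone (added after seeing the data), and was -0.00043 with quantile normalization, and Yap1 at 200 against 50 ng/mL (-0.13) ran from -0.20 to 0.0020, the last without 24 h replicate 1. The cause was not tested. Of the 8 comparisons that involve AMH, each with 0 probe sets passing, the AMH 50 ng/mL comparison of 24 h had 1 with the 9 arrays of 24 h only. Without 12 h replicate 2 the AMH 200 ng/mL comparison of 12 h had 242, that of 50 ng/mL 4, the average of both times 2 and the difference of the 50 ng/mL effects 3, so leaving out a pool gave 0 to 242, 0 to 4, 0 to 2 and 0 to 3. Fitting the doses with no replicate block gave 0 in each. For time in vehicle, 291 passed, against 642 with the replicate block, 676 with all 17 arrays, 154 with a pseudocount of 1, 60 without a filter and 128 above the 75th percentile. Leaving out 1 vehicle array gave 0 to 531: 1 without 24 h replicate 1, 0 without 24 h replicate 2 or 3, 35 without 12 h replicate 2 and 531 without 12 h replicate 3. With the replicate block no call on a member changed. Median centring moved the median of all tested probe sets to 0.10 at AMH 50 ng/mL and 24 h (from -0.01), to 0.09 at 50 ng/mL and 12 h (from -0.05), to -0.08 for 200 against 50 ng/mL (from 0.02) and to -0.09 for time (from 0.02), and it moved the counts of genes on each side of 0 in the first 3. Ccn1, Ccn2 and Ankrd1 had the largest SEs of the 10 genes in every comparison of doses.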
